A study of Mus musculus with 74 samples.

Results

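Pou5f1, Nanog, Sall4 and Utf1 were followed through the conversion of mouse fibroblasts by Sox-factor cocktails. They were taken by name from both deposited expression tables, which gave 4 genes of 21811 in all, each present in both tables. The fibroblasts (MEFs) were mouse embryonic fibroblasts with a Sox2-GFP reporter, transduced with lentiviruses for the transactivator M2rtTA and for factors switched on by doxycycline (Dox). No cocktail contained any of the 4 genes. In NSC medium, which carries N2, B27, bFGF and EGF for neural stem cells, 4 cocktails were compared: K_FNV (Klf4 and eSox17FNV, an engineered Sox17), BKM_FNV (Brn4, Klf4, c-Myc and eSox17FNV), BKM_Sox17 (the same with wild-type Sox17) and BKM_Sox2 (the same with Sox2). Collection was at days 4, 8, 12 and 18 with Dox, then at days 24 and 30 without it. The lines iNSC_KF and iNSC_BKMF were labelled as passage 15 products of the K_FNV and BKM_FNV factors. They were collected beside the cocktails, as were primary neural stem cells (NSCs, passage 15, labelled Sox2-GFP) and untransduced MEFs (passage 1, in MEF medium). In a parallel experiment, MEFs with Nanog-CreER, Rosa26-tdTomato and Sox2-GFP alleles received Klf4, c-Myc and eSox17FNV (KM_FNV) on Dox in N2B27, a medium without added growth factors. At day 8 they were split to LIF/2i (LIF with the inhibitors CHIR99021 and PD0325901, a medium that maintains mouse embryonic stem cells) or to NSC medium, and collected at days 12 and 16 on Dox and days 20 and 24 after it. The MEFs of the parallel table carried Sox2-GFP alone, so they are not the genotype of its starting cells. By their labels, the MEF and iNSC_BKMF libraries are the same samples in both tables, and the NSC columns of both match the same group. They are not a second, independent set. Each group had 2 libraries, except that BKM_Sox17 and BKM_Sox2 at day 30 had 1 each.

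Pou5f1 encodes Oct4, a POU-domain transcription factor without which the pluripotent cells of the mouse embryo do not form. With Sox2, Oct4 binds paired DNA sites, often called Sox-Oct composite elements, in its own enhancer and in genes such as Nanog, Utf1, Fgf4 and Lefty1. Nanog is a homeodomain factor that holds embryonic stem cells in self-renewal when signals fluctuate. Sall4 is a zinc finger factor that recruits the NuRD corepressor and supports Pou5f1 expression in mouse stem cells, and Utf1 is a chromatin-associated protein of undifferentiated cells. Oct4 is the usual partner of Sox2 in reprogramming to pluripotency, whereas Sox17 ordinarily pairs with Oct4 on a differently spaced, compressed element in endoderm. None of the 4 genes is a marker of adult neural stem cells or fibroblasts.

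In the mouse annotation GENCODE vM21 (GRCm38, the assembly also called mm10 in the submitters' processing notes), Pou5f1 (ENSMUSG00000024406) lies on chromosome 17 from 35506018 to 35510772 on the plus strand. Nanog (ENSMUSG00000012396) lies on chromosome 6 from 122707489 to 122714633 on the plus strand. Sall4 (ENSMUSG00000027547) lies on chromosome 2 from 168748332 to 168767943 on the minus strand, and Utf1 (ENSMUSG00000047751) on chromosome 7 from 139943789 to 139945112 on the plus strand. The coding transcripts of Pou5f1 have 3 to 5 exons, those of Nanog 4 or 5, those of Sall4 2 to 4 and that of Utf1 2. RefSeq names 2 Nanog pseudogene copies and 7 Pou5f1 related sequences, and 0 of them had a row in either table. Reads that fit a copy could therefore have been counted on the gene, and low values of Nanog and Pou5f1 are uncertain for that reason.

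Sequences upstream of the RefSeq start sites (GRCm38.p6) of Nanog and Pou5f1 are shown, because Nanog had the largest of the members' differences between media after Dox and Pou5f1 the largest between BKM_FNV and either wild-type cocktail on Dox. The Nanog stretch runs up to its RefSeq start, 122707489, while the Pou5f1 stretch stops where the GENCODE gene begins, short of its RefSeq start at 35506032. Capitals in the Nanog stretch mark its Sox-Oct composite element, here on the minus strand. Capitals in the Pou5f1 stretch mark the GC box GGGGCGGGG and the nuclear receptor core AGGTCA, both on the plus strand.
Nanog, chr6:122707239-122707488, plus strand: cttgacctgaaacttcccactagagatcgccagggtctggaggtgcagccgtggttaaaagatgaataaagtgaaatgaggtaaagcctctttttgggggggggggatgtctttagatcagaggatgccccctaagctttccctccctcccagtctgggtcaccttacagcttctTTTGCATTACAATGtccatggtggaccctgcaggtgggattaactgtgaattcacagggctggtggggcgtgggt
Pou5f1, chr17:35505782-35506017, plus strand: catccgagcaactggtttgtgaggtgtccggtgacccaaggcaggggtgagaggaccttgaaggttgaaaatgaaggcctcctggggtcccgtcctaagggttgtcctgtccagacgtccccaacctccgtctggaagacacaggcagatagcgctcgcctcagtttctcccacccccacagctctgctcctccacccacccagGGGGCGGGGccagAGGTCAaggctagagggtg
The Nanog element TTTGCATTACAATG ends 62 bases before the start site and begins 75 bases before it. Both strands of 32851 upstream windows of 250 bases were searched for a composite pattern of 14 letters. Most letters of this pattern were fixed, and the Nanog element fits it. It was held by 2 windows (0.00609%), both of them windows of Nanog. Composites of the same spacing with other letters at the fixed places were not searched for, so their share is unknown. The compressed form, searched in the same way as a pattern of 13 letters, was found in 0.00304% of the windows. It was in none of the 5 windows of Nanog, Pou5f1 and Utf1. The Pou5f1 GC box lies 38 to 46 bases and its AGGTCA core 28 to 33 bases before the RefSeq start. These 2 motifs are common, in 10.4% and 14.0% of windows. The Utf1 window also held a GC box. The Nanog stretch shown also held an AGGTCA core, on the minus strand and not in capitals. The second Pou5f1 window held neither motif. The windows overlap between start sites of a gene, and a match describes the letters and not a bound factor.

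The deposited values are normalized tag counts, whole numbers that share the same highest value in every library of a table (78139 in the NSC-medium table of 54 libraries, 87546 in the parallel table of 26). This pattern is that of full quantile normalization, so read depth is unknown and 0 is written as listed at 0. Whether the values are scaled by gene length is not given in the sources used here, and levels are compared within a gene only. The library BKM_Sox2 day 24 replicate 1 stood apart: 18322 of its 21241 values lay on a never-falling run along the rows, against 2583 to 4569 in the other libraries of that table. It was left out of the fit. It gave 0 for Pou5f1 and Nanog, 1 for Sall4 and 328 for Utf1, and its return widens the spread that all comparisons of that table share. The labels do not say that replicates were separate cultures, so the tests measure the spread between libraries. In bulk RNA, fewer cells expressing a gene and less RNA per cell cannot be told apart. Fibroblast markers summed to 204654 in MEFs against 544 in NSCs, and the neural stem cell markers Sox2, Sox3, Olig2 and Nr2e1 were listed at 0 in MEFs. NSCs and both lines expressed all 10 neural stem cell markers (summed level 88730 in iNSC_KF, 135291 in iNSC_BKMF and 138253 in NSCs).

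Pou5f1 was high in the BKM_FNV cocktail alone among the NSC-medium cocktails. Its 2 libraries gave 2 and 9 at day 4, 796 and 918 at day 8, 687 and 1202 at day 12 and 755 and 1850 at day 18. After Dox they gave 1621 and 1683 at day 24, and 29 and 22 at day 30. The step from day 4 to day 8 was the largest between neighbouring days on Dox, and no library of days 8 to 24 overlapped with any library of another cocktail. How many of all genes were so separated was not counted. K_FNV gave 3 and 1, 5 and 2, 11 and 6, and 20 and 43 on the same 4 days on Dox, then 0 and 1 at day 24 and 0 in both at day 30. BKM_Sox17 was listed at 0 at days 4 and 8, gave 5 and 3 at day 12 and 9 and 11 at day 18, and was back at 0 at days 24 and 30. BKM_Sox2 did not exceed 1 in any library. Pou5f1 was listed at 0 in MEFs, NSCs and both lines.

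Nanog had a level above 0 in every group, fibroblasts and neural stem cells included. BKM_FNV gave 69 and 85 at day 4, 312 and 275 at day 8, 230 and 198 at day 12 and 190 and 249 at day 18. It then gave 515 and 469 at day 24 and 106 and 109 at day 30. BKM_Sox17 gave 16 in both libraries at day 4, 82 and 95 at day 8, 93 and 110 at day 12 and 119 and 128 at day 18. K_FNV ranged from 13 at day 4 to 139 at day 18, and BKM_Sox2 from 0 to 145. The lines gave 66 and 95 (iNSC_KF) and 109 and 138 (iNSC_BKMF), NSCs 122 and 132, and MEFs 74 and 82. Values of the size seen in late BKM_Sox17 and BKM_Sox2 cells thus also occurred in primary NSCs. Of the groups with 2 libraries, only BKM_FNV at days 8, 12, 18 and 24 had both above every NSC library.

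Sall4 was listed at 0 in MEFs, NSCs and both lines and appeared in all 4 cocktails. BKM_FNV gave 112 and 110 at day 4, 199 and 174 at day 8, 98 and 86 at day 12 and 43 and 68 at day 18. After Dox its values were 669 and 707 at day 24 and 137 and 142 at day 30. BKM_Sox17 gave 35 and 27, 69 and 75, 70 and 69, and 28 and 42 over the 4 days on Dox. BKM_Sox2 gave 10 and 12, 25 and 12, 56 and 72, and 79 and 74, and so ended above BKM_FNV at day 18. K_FNV stayed between 2 and 16 on Dox.

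Utf1 was at 1 in every library of MEFs, NSCs and the lines. MEFs, NSCs and iNSC_BKMF were at 2 in every library of the parallel table, so differences of this size are not interpreted. BKM_FNV gave 43 and 22 at day 4, 192 and 100 at day 8, 81 and 116 at day 12 and 60 and 133 at day 18, then 216 and 238 at day 24 and 4 and 1 at day 30. BKM_Sox2 gave 18 and 17 at day 4, 58 and 30 at day 8, 20 and 16 at day 12 and 2 and 1 at day 18. BKM_Sox17 did not exceed 18, and K_FNV was listed at 0 in every library but 1 (6 at day 18). All 4 genes had their highest group mean of the table in BKM_FNV at day 24, after Dox withdrawal, the left-out library aside. No test was run between days 18 and 24.

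**Figure D1:**
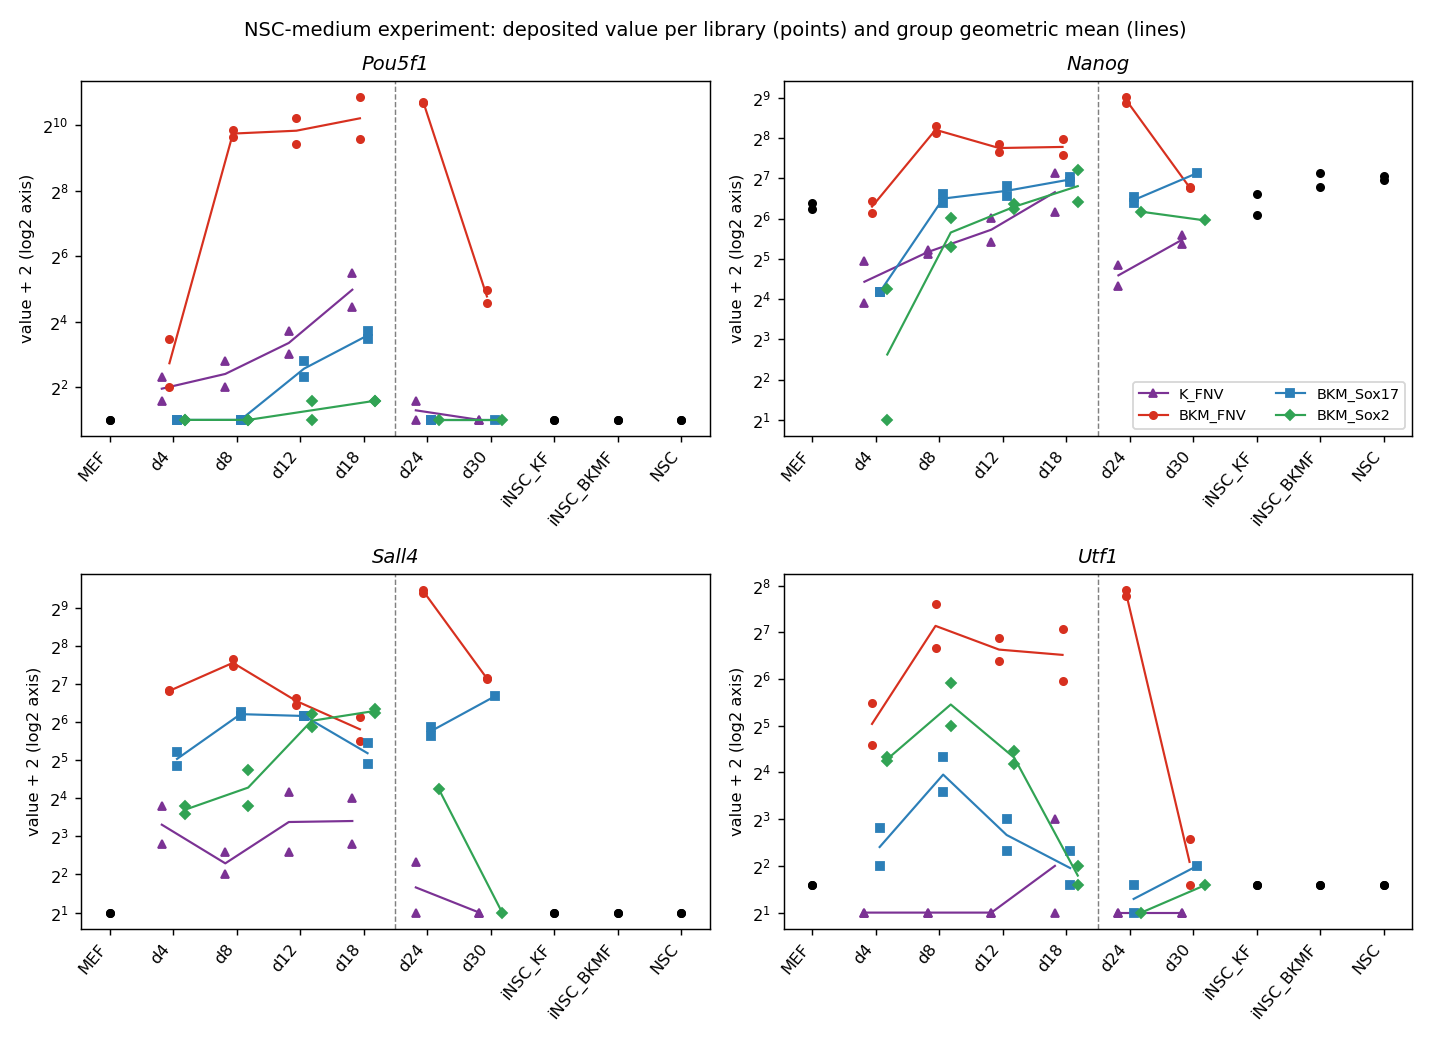
Deposited value plus 2 on a log2 axis for each member in the NSC-medium table, by day, with points for libraries and lines through group geometric means. Lines are broken at the dashed mark of Dox withdrawal, and the left-out library is not drawn. BKM_FNV is the highest cocktail from day 8 to day 24 except for Sall4 at day 18, and Pou5f1 is listed at 0 in MEFs, both lines and NSCs.

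The effect of the engineered residues was addressed by comparing BKM_FNV with BKM_Sox17, which differ in the Sox factor only. Over the 4 days on Dox, all 4 members rose in BKM_FNV by limma's test, as did 2.29% of all genes. A gene was called at a Benjamini-Hochberg adjusted p below 0.05 and at least 2-fold, on the log2(value + 2) scale that is used for every difference here. Mean levels over the 4 days were 777 in BKM_FNV and 3.5 in BKM_Sox17 for Pou5f1 (log2 fold change 6.09 ± 0.21 SE, adjusted p = 2.4e-18, n = 8 libraries each). For Utf1 they were 93.4 and 6 (3.59 ± 0.24, adjusted p = 1.1e-11), for Nanog 201 and 82.4 (1.43 ± 0.27, adjusted p = 2.2e-04) and for Sall4 111 and 51.9 (1.04 ± 0.21, adjusted p = 5.5e-04). The libraries did not overlap on any of the 4 days for any member, but the share of all genes so separated was not counted. Separation of 2 libraries from 2 is weak alone. Nanog and Sall4 at days 12 and 18 were apart without passing the test of that day. Since BKM_Sox17 was listed at 0 for Pou5f1 at days 4 and 8, the size of that average depends on the added 2. The Sall4 difference lost its call, by falling under 2-fold, without BKM_FNV day 18 replicate 2 (0.96), BKM_Sox17 day 18 replicate 1 (0.97) or BKM_Sox17 day 4 replicate 2 (0.99), and Nanog lost its call with the left-out library restored (adjusted p = 0.072).

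Reads on the Sox17 gene, which include the delivered factor, averaged 30317.5 in BKM_FNV and 9348 in BKM_Sox17 at day 4 (log2 difference 1.69 ± 0.22, adjusted p = 2.8e-05). They were close at day 8, with 25564.5 and 25188, and the part of the day 4 gap in the members' differences was not tested. The same cocktails were then compared day by day, where 1.47% of genes were called at day 4, 4.58% at day 8, 4.79% at day 12 and 3.92% at day 18. Pou5f1 and Utf1 were called at each of the 4 days, Utf1 with log2 differences of 2.63 at day 4, 3.18 at day 8, 3.97 at day 12 and 4.56 at day 18 (SE 0.49 each). Nanog was called at day 4 (2.13 ± 0.54) and day 8 (1.71 ± 0.54), and had 1.06 at day 12 and 0.81 at day 18 (adjusted p = 0.19 and 0.39). Sall4 was called at day 4 (1.79 ± 0.42) and day 8 (1.35 ± 0.42), and had 0.39 at day 12 and 0.63 at day 18 (adjusted p = 0.61 and 0.40). For Pou5f1, where BKM_Sox17 was above 0, the differences were 7.27 ± 0.42 at day 12 and 6.63 ± 0.42 at day 18. With BKM_Sox17 at means of 4 and 10 on these days, the sizes still depend in part on the added 2.

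BKM_FNV differed from BKM_Sox2 in the same direction for all 4 members, among the 3.37% of genes that rose. Mean levels on Dox were 777 in BKM_FNV and 0.375 in BKM_Sox2 for Pou5f1 (log2 fold change 6.91 ± 0.21, adjusted p = 2.7e-19) and 201 and 62.3 for Nanog (2.16 ± 0.27, adjusted p = 3.2e-07). They were 111 and 42.5 for Sall4 (1.61 ± 0.21, adjusted p = 8.6e-07) and 93.4 and 20.3 for Utf1 (2.37 ± 0.24, adjusted p = 1.35e-08). Pou5f1 did not exceed 1 in BKM_Sox2, so the size of its difference depends on the added 2. Sall4 did not keep one direction, since BKM_FNV lay above BKM_Sox2 at days 4, 8 and 12 and below it at day 18 (55.5 and 76.5, adjusted p = 0.47). At days 4, 8, 12 and 18, 3.56%, 7.06%, 6.61% and 7.72% of genes were called. Nanog and Sall4 were called at days 4 and 8, Pou5f1 at each day and Utf1 from day 8 on. Between BKM_Sox17 and BKM_Sox2, Utf1 alone of the 4 members was called (mean 6 and 20.3, log2 fold change -1.22 ± 0.24, adjusted p = 3.9e-04, with 1.86% of genes lower). The Utf1 difference was under 2-fold with a pseudocount of 10 (-0.77) and lost its call with the left-out library restored (adjusted p = 0.35). The 95% intervals of the other differences were 0.39 to 1.24 for Pou5f1, 0.19 to 1.29 for Nanog and 0.13 to 1.01 for Sall4, and Nanog was called without BKM_Sox2 day 4 replicate 1 (1.14).

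**Figure D2:**
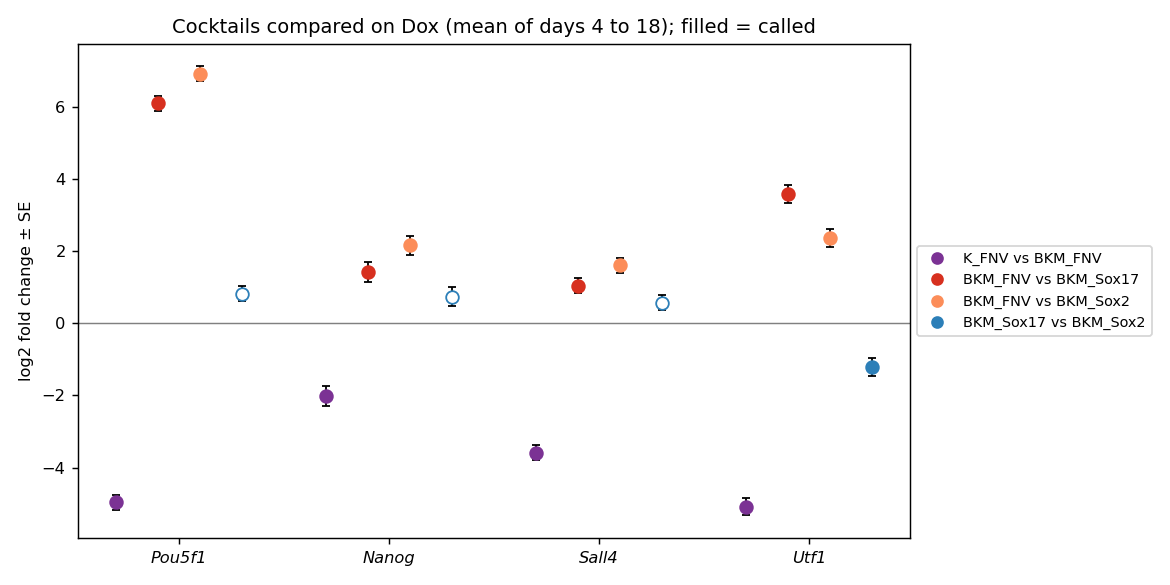
Log2 fold change with its standard error for each member in 4 comparisons of cocktails, averaged over days 4, 8, 12 and 18, with filled points for called genes. All 4 members are called in K_FNV against BKM_FNV and in BKM_FNV against either wild-type cocktail, and Utf1 alone between BKM_Sox17 and BKM_Sox2.

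The 2 factors of K_FNV gave far lower levels of all 4 members than the 4 factors of BKM_FNV, in a comparison in which 6.97% of genes fell. Mean levels on Dox were 11.4 in K_FNV and 777 in BKM_FNV for Pou5f1 (log2 fold change -4.96 ± 0.21, adjusted p = 2.7e-17), and 52.9 and 201 for Nanog (-2.01 ± 0.27, adjusted p = 2.5e-07). They were 7.75 and 111 for Sall4 (-3.59 ± 0.21, adjusted p = 3.1e-14) and 0.75 and 93.4 for Utf1 (-5.08 ± 0.24, adjusted p = 4.8e-16), where K_FNV was mostly listed at 0. The libraries did not overlap on any day, except for Pou5f1 at day 4, and again the share of all genes so separated was not counted. At days 4, 8, 12 and 18, 16.8%, 17%, 12.8% and 12.3% of genes were called. Sall4 and Utf1 were called at each day, Pou5f1 from day 8 on and Nanog at days 4, 8 and 12. Reads on Sox17 averaged over the days did not pass the test (log2 fold change 0.21 ± 0.11, adjusted p = 0.11), nor did those on Klf4 (-0.18 ± 0.07, under 2-fold). Epithelial markers moved with this difference: 6 of 6 fell in K_FNV, where their summed level ranged from 2799 to 3787 against 4648.5 to 17212 in BKM_FNV on Dox, with none at 0 in BKM_FNV. Of all genes called in this comparison, 51.8% were higher in K_FNV. Endothelial markers summed to 1533.5 to 2795 in K_FNV against 259.5 to 576.5 in BKM_FNV, with 2 of 4 higher by the test (Cdh5 and Kdr). Trophoblast markers summed to 78.5 to 167.5 in K_FNV against 143.5 to 2305 in BKM_FNV, with 1 of 5 lower (Krt7). No marker of either list was at 0 in these groups, and the part of these lists in the members' difference was not tested.

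Calls at single days rest on 2 libraries against 2. Of the 37 that passed among the 48 day differences of the 3 pairs of cocktails, 13 did not pass with the left-out library restored and 22 did not pass when only the compared groups were fitted.

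**Figure D3:**
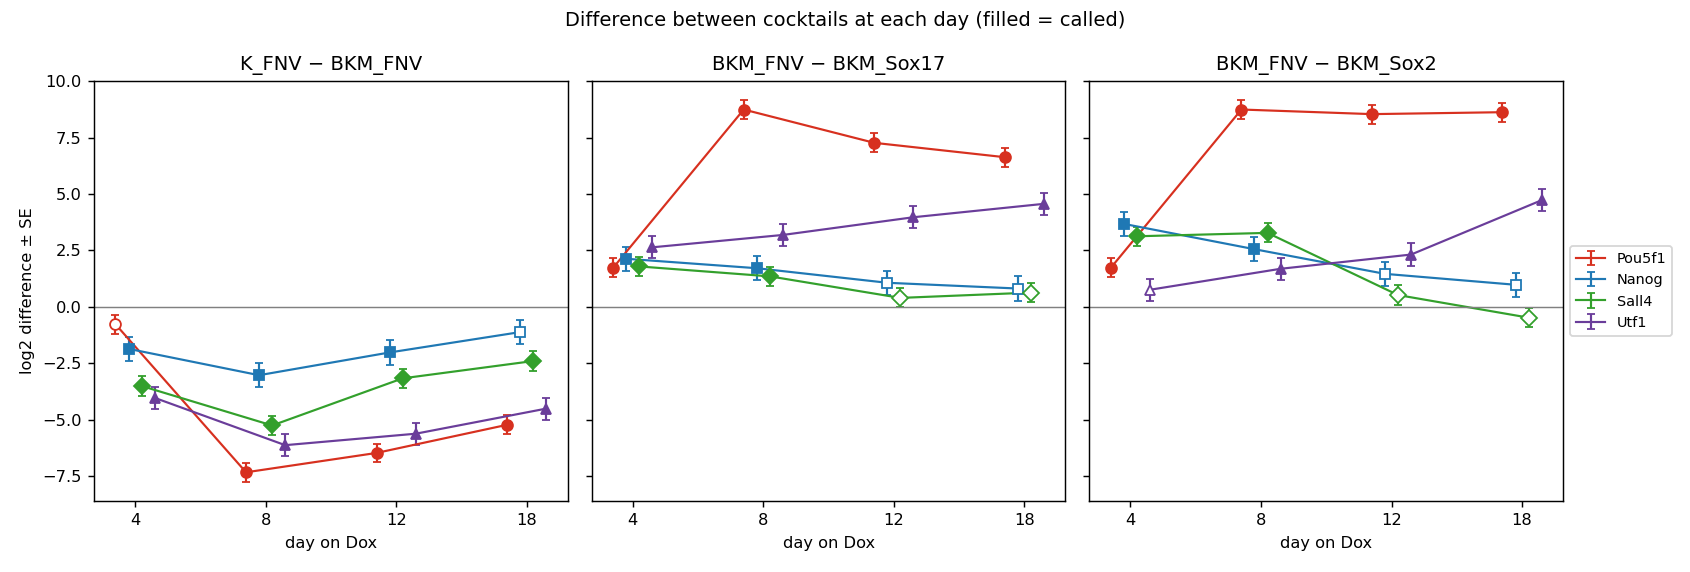
Log2 difference with its standard error between cocktails at each day on Dox, with filled points for called genes. Differences of BKM_FNV from the wild-type cocktails are smaller at days 12 and 18 than at day 4 for Nanog and Sall4 and larger for Utf1. Differences of a gene against a cocktail listed at 0 (Pou5f1 in BKM_Sox17 and BKM_Sox2 at days 4 and 8, Utf1 in K_FNV before day 18) depend on the added 2.

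The course on Dox was tested within each cocktail between day 18 and day 4. In BKM_FNV, with 11.4% of genes higher, Pou5f1 rose to a mean of 1302.5 ± 774 at day 18 against 5.5 ± 4.9 at day 4 (SD, n = 2 each; log2 fold change 7.48 ± 0.42 SE, adjusted p = 5.1e-14). Nanog rose to 219.5 ± 41.7 against 77 ± 11 (1.48 ± 0.54, adjusted p = 0.025) and Utf1 to 96.5 ± 51.6 against 32.5 ± 14.8 (1.48 ± 0.49, adjusted p = 0.014). Sall4 had 55.5 ± 17.7 at day 18 and 111 ± 1.4 at day 4 (-1.01 ± 0.42, adjusted p = 0.053). The Nanog and Utf1 calls rested on few libraries. Nanog lost its call without BKM_FNV day 18 replicate 2 (1.29), day 4 replicate 1 (1.34) or day 4 replicate 2 (1.63), Utf1 without day 18 replicate 2 (0.92) or day 4 replicate 2 (1.02), and Sall4 was called as falling without day 18 replicate 2 (-1.33).

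In BKM_Sox17, with 9.37% of genes higher, Nanog rose to 123.5 ± 6.36 at day 18 against 16 ± 0 at day 4 (2.80 ± 0.54, adjusted p = 8.8e-05), and Pou5f1 rose to 10 ± 1.4 against a day 4 listed at 0 (adjusted p = 8.6e-06). Sall4 and Utf1 did not pass the test (0.15 ± 0.42 and -0.45 ± 0.49). In BKM_Sox2, with 17% of genes called in either direction, Nanog rose to 114 ± 44 against 8.5 ± 12.0 (4.18 ± 0.54, adjusted p = 3.3e-07) and Sall4 to 76.5 ± 3.5 against 11 ± 1.4 (2.60 ± 0.42, adjusted p = 1.2e-05). The day 4 Nanog libraries there gave 17 and 0. Without the one at 0 the difference was 2.56, and with the compared groups alone the adjusted p was 0.16. Utf1 fell there to 1.5 ± 0.7 against 17.5 ± 0.7 (-2.49 ± 0.49, adjusted p = 1.3e-04). In K_FNV, with 5.4% of genes higher, Pou5f1 rose to 31.5 ± 16.3 against 2 ± 1.4 (3.02 ± 0.42, adjusted p = 2.35e-06) and Nanog to 104.5 ± 48.8 against 21 ± 11.3 (2.22 ± 0.54, adjusted p = 0.0020). Nanog there lost its call without K_FNV day 18 replicate 2 (1.74) or day 4 replicate 1 (1.70). Of the 4 members only Nanog passed the test as rising in all 4 cocktails. The share of all genes that did so was not counted. As given above, its calls in BKM_FNV and K_FNV were lost without single libraries, and that in BKM_Sox2 with the compared groups alone. The difference between courses was itself called for Pou5f1 in BKM_FNV against BKM_Sox17 (2.14% of genes called, the other 3 members at adjusted p = 0.11 to 0.38), for all 4 members against BKM_Sox2 (7.28%) and for Pou5f1 in K_FNV against BKM_FNV (14.7%). Early Nanog levels lay at or under those of the fibroblasts. Averaged over the 4 cocktails, day 4 gave 30.6 against 78 in MEFs (-1.94 ± 0.43, adjusted p = 3.4e-04, with 18.1% of genes called), although the BKM_FNV libraries at day 4, 69 and 85, overlapped with those of MEFs. Over the same groups Sall4 rose to 40.4 against MEFs listed at 0 (adjusted p = 3.5e-10), and Utf1 to 13.4 against 1 (1.60 ± 0.39, adjusted p = 9.7e-04), while Pou5f1 did not pass (1.88 against 0, adjusted p = 0.092). The Utf1 average joins BKM_FNV (32.5) and BKM_Sox2 (17.5) with BKM_Sox17 (3.5) and with K_FNV, which was listed at 0. Its call was lost with a pseudocount of 10 (0.84) and with the left-out library restored (adjusted p = 0.30).

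After Dox, over days 24 and 30 together, the members averaged higher in BKM_FNV than in the other cocktails, but not at each day. Between BKM_FNV and BKM_Sox17, 9.67% of genes were higher, all 4 members among them. Sall4 averaged 414 in BKM_FNV and 76.3 in BKM_Sox17 (2.07 ± 0.34, adjusted p = 8.8e-06), Utf1 115 and 1.25 (3.32 ± 0.39, adjusted p = 4.5e-08), and Pou5f1 839 against 0. The Utf1 difference came from day 24, since at day 30 the libraries overlapped (4 and 1 in BKM_FNV, against 2 in BKM_Sox17 and 1 in BKM_Sox2). Nanog averaged 300 and 112 (1.07 ± 0.43, adjusted p = 0.038), higher at day 24 and lower at day 30, where BKM_Sox17 had 138 in its only library, and it lost its call without any 1 of the 6 libraries that could be left out (1.03 to 1.10). Between BKM_FNV and BKM_Sox2 the 4 members were also higher, among 8.72% of genes, with 1 BKM_Sox2 library at each day. Sall4 averaged 414 and 8.5 (5.66 ± 0.37), Nanog 300 and 65 (1.80 ± 0.47), Utf1 115 and 0.5 (3.67 ± 0.42) and Pou5f1 839 and 0. With the left-out BKM_Sox2 library, which gave 328 for Utf1, the Utf1 difference was 1.83 and not called (adjusted p = 0.0855). Of all genes called there, 57.6% were higher, against 68.1% after rescaling by the median ratio, which moved the median of all genes to 0.04 from -0.09. In K_FNV, all 4 fell relative to BKM_FNV, among 10.8% of genes, with Sall4 at 0.75 against 414 (-6.96 ± 0.30) and Nanog at 32.5 against 300 (-2.83 ± 0.38).

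Within BKM_FNV, all 4 members fell between day 24 and day 30, in a comparison with 7.89% of genes lower. Pou5f1 fell to 25.5 ± 4.9 at day 30 against 1652 ± 44 at day 24 (SD, n = 2 each; log2 fold change -5.92 ± 0.42, adjusted p = 6.0e-12), and Utf1 to 2.5 ± 2.1 against 227 ± 16 (-5.75 ± 0.49, adjusted p = 2.8e-10). Sall4 fell to 139.5 ± 3.54 against 688 ± 26.9 (-2.29 ± 0.42, adjusted p = 8.6e-05) and Nanog to 107.5 ± 2.12 against 492 ± 33 (-2.17 ± 0.54, adjusted p = 0.0019). The epithelial markers fell over the same days (6 of 6, summed level 64.5 at day 30 against 9501 at day 24, with none at 0 at day 24). Neural stem cell markers summed to 19364.5 at day 30 against 10066 at day 24, with 3 of 10 called as higher. Of all genes called there, 46.6% were higher at day 30. Reads on delivered Klf4 (37 against 621.5) and Sox17 (33 against 155.5) fell as well, and the part of these changes in the members' fall was not tested.

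Compared with NSCs, BKM_FNV cells at day 30 still held 2 of the 4 transcripts. Pou5f1 (25.5 ± 4.9) and Sall4 (139.5 ± 3.54) were higher than in NSCs, where both were listed at 0 (adjusted p = 1.1e-08 and 7.0e-13), while Nanog (107.5 ± 2.12 against 127 ± 7.07, 95% interval of the log2 difference -1.34 to 0.87) and Utf1 (2.5 ± 2.1 against 1) did not pass the test. In this comparison 14.5% of genes were higher. They made up 51.5% of the calls, against 62.0% after rescaling, which moved the median of all genes to 0 from -0.17. Fibroblast markers still summed to 194782 in these cells against 544 in NSCs, with 9 of 10 called as higher, and their part was not tested. The established lines held 0 Pou5f1 and Sall4. Pou5f1 and Sall4 were listed at 0 and Utf1 at 1 in every library of both lines, NSCs and MEFs. Among the members only Nanog could therefore differ between these groups. Limma did not call Nanog between iNSC_BKMF and NSCs (2.02% of genes called), iNSC_KF and NSCs (8.88%) or NSCs and MEFs (34.4%). Its unadjusted p was not under 0.05 in any of them, while that of 3707, 6426 and 12528 of 20760 genes was. For Nanog the difference was -0.05 between iNSC_BKMF and NSCs (95% interval -1.15 to 1.06), -0.67 between iNSC_KF and NSCs (-1.77 to 0.44) and 0.69 between NSCs and MEFs (-0.41 to 1.79).

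Genes of the surrounding network were read from lists. Of 10 genes known as Oct4 and Sox2 targets in stem cells, 6 rose and 0 fell in BKM_FNV against BKM_Sox17 on Dox, where 2.29% of all genes rose, with a median log2 difference of 1.60 against -0.03 over all genes tested. The largest were Lefty2, an antagonist of Nodal (4.86 ± 0.19), Tdgf1, a Nodal co-receptor (3.59 ± 0.69), and Dppa4, a chromatin-associated factor of early embryos (3.48 ± 0.63). Of 20 core network partners 19 were tested, and 7 rose and 2 fell (median 0.62). Zfp42, the stem cell marker Rex1, rose by 3.64 ± 0.64 and the growth factor Gdf3 by 2.84 ± 0.35, while the nuclear receptor Nr0b1 fell (-2.76 ± 0.17). These genes were low, with Zfp42 at group means of 10.5 to 63 in BKM_FNV on Dox. The 16 protein partners and corepressors had a median of 0.09, and of the 9 tested regulators of Pou5f1 only Esrrb, an activator in stem cells, was called (2.07 ± 0.21). On Dox, BKM_Sox17 was listed at 0 for Gdf3 at each day and for Lefty2, Tdgf1, Dppa4, Zfp42 and Esrrb at some. The sizes of these differences therefore depend on the added 2.

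Against BKM_Sox2, where 3.37% of all genes rose, 6 of the 10 targets rose in BKM_FNV (Lefty2 4.35 ± 0.19) and Sox2, which BKM_Sox2 delivers, fell. Of the core partners 8 rose and 2 fell, with Lin28a, an RNA-binding protein that blocks let-7, at 2.79 ± 0.20. BKM_Sox2 was listed at 0 for Lefty2 at day 4 and for Lin28a at day 18, so the sizes for both genes depend on the added 2. In K_FNV against BKM_FNV, where 6.97% of all genes fell, 6 of 10 targets fell and 2 rose (Spp1 and Trh), and 8 of 12 POU and Sall relatives fell, Pou3f4 (the Brn4 gene that K_FNV lacks) among them. Between day 30 and day 24 of BKM_FNV, where 7.89% of all genes fell, 8 of 10 targets fell and 0 rose (median -3.88 against 0.08 over all genes), with Lefty2 listed at 0 at day 30. Of the core partners 11 of 19 fell and 0 rose (median -1.61), among them Klf2 (-5.14 ± 0.41), Prdm14 (-4.31 ± 0.86) and Lin28a (-4.11 ± 0.40). Prdm14 was also listed at 0 at day 30. The members are not in these lists.

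In the parallel experiment, KM_FNV cells in N2B27 had Pou5f1 at day 4 already, with 582 and 633, against 0 in both MEF libraries. Sall4 gave 26 and 30 against 0, Nanog 155 and 188 against 84 and 91, and Utf1 6 in both against 2. Pou5f1 and Sall4 were called (adjusted p = 3.4e-09 and 1.0e-07, with 9.88% of genes higher). Nanog did not reach 2-fold (0.95 ± 0.25, adjusted p = 0.0074) but did without N2B27 day 4 replicate 1 (1.09) or MEF replicate 2 (1.01), and Utf1 did not pass (1.00 ± 0.57, adjusted p = 0.20). The starting cells carried a Nanog-CreER allele that these MEFs lack, and any reads from it on Nanog were not tested. At day 8 the values were 3982 and 1341 for Pou5f1, 268 and 195 for Nanog, 396 and 285 for Sall4 and 96 and 128 for Utf1. Against day 4, Sall4 (3.497 ± 0.294, adjusted p = 2.5e-06), Utf1 (3.82 ± 0.57, adjusted p = 8.6e-04) and Pou5f1 (1.93 ± 0.45, adjusted p = 0.014) rose, among 3% of genes, and Nanog did not pass (0.42 ± 0.25). Pou5f1 lost its call without day 8 replicate 1 (1.14), day 4 replicate 1 (1.87) or day 4 replicate 2 (1.99). Of all genes called there 63.7% were higher, against 78% after rescaling.

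After the split the 2 media diverged. In LIF/2i, Pou5f1 gave 7920 and 6971 at day 12, 8617 and 8087 at day 16, 8087 and 8369 at day 20 and 9605 in both libraries at day 24. In NSC medium it gave 4505 and 4603, 1488 and 1700, 1195 and 1892, and 618 and 2070. The media did not overlap at any day, but the share of all genes so separated was not counted. Separation of 2 libraries from 2 is weak alone. Nanog in LIF/2i gave 3079 and 2836 at day 12, 5178 and 4445 at day 16, 10290 and 8832 at day 20 and 14544 in both at day 24. In NSC medium it gave 856 and 651, 296 and 345, 492 and 599, and 342 and 692. Nanog was thus the member whose LIF/2i values were higher at each later day, without overlap between days. The share of all genes with such a course was not counted.

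Sall4 gave 1281 and 1460, 1622 and 1436, 2856 and 2873, and 2367 and 2064 in LIF/2i at days 12, 16, 20 and 24. In NSC medium it gave 388 and 389, 76 and 102, 187 and 485, and 441 and 476 on those days. Utf1 took another course, with 773 and 642, 1361 and 448, 207 and 444, and 108 and 110 in LIF/2i. In NSC medium it gave 800 and 802, 158 and 206, 341 and 686, and 55 and 242. For Sall4 the media did not overlap at any day, whereas for Utf1 LIF/2i was lower at day 12, higher at day 16 and overlapping after Dox. Here too the share of all genes so separated was not counted.

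**Figure D4:**
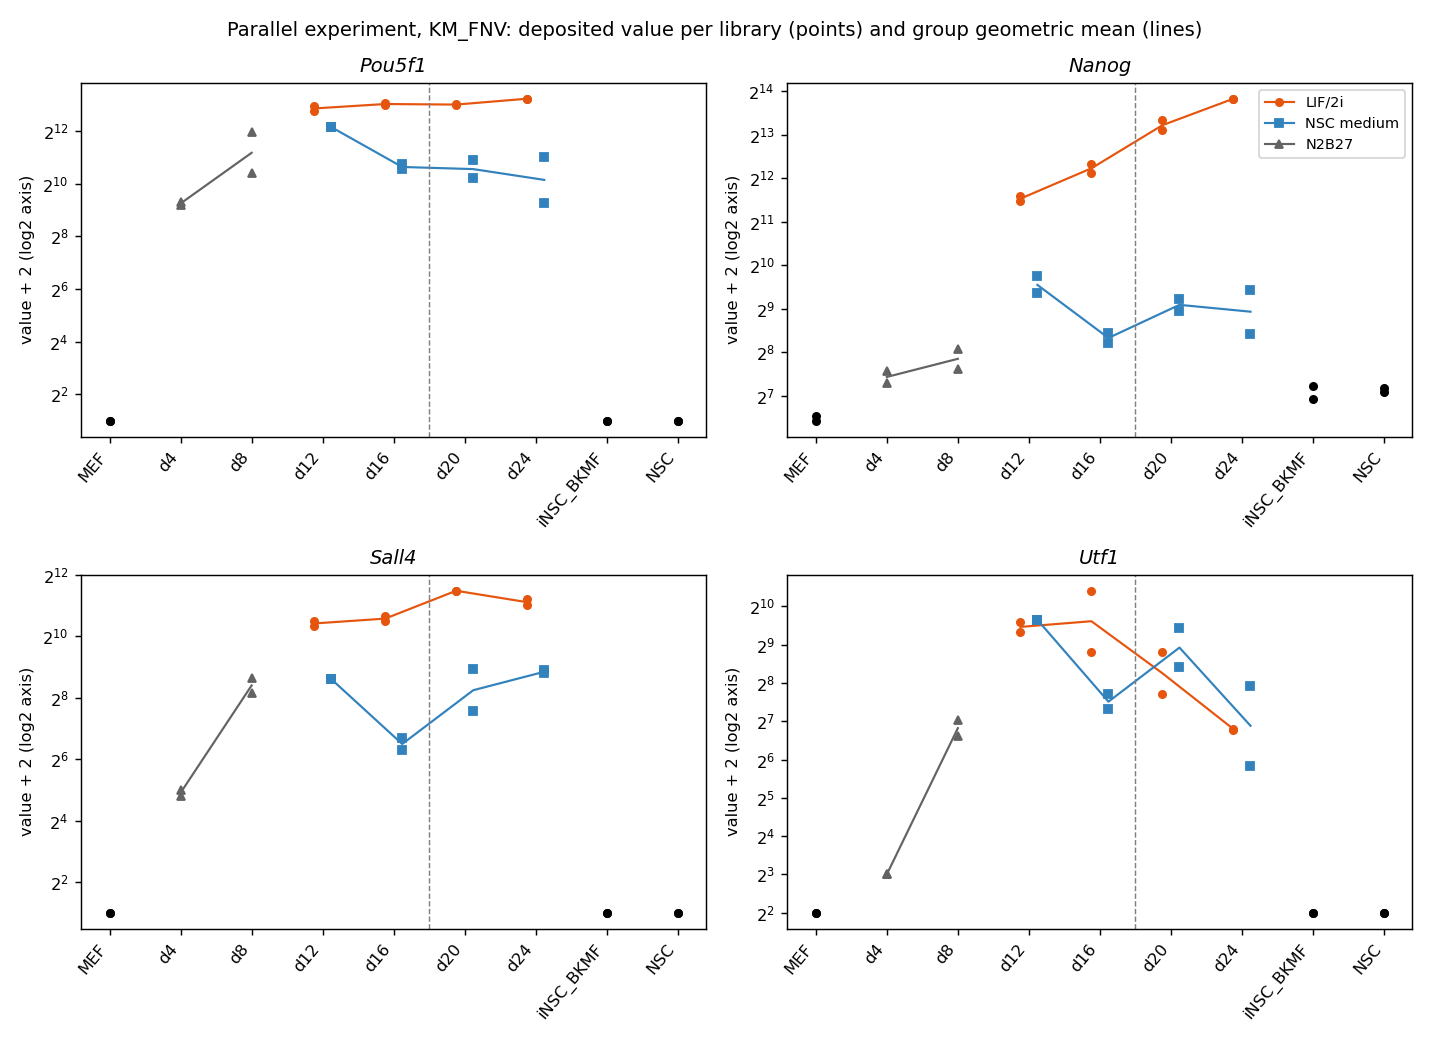
Deposited value plus 2 on a log2 axis for each member in the parallel table, with points for libraries and lines through group geometric means, for LIF/2i, NSC medium and the earlier N2B27 phase. The dashed mark is Dox withdrawal. Pou5f1, Nanog and Sall4 lie higher in LIF/2i than in NSC medium at every day, and Utf1 crosses over.

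The first response to LIF/2i was tested between day 12 and N2B27 day 8, where 6.81% of genes and all 4 members rose. Nanog had the largest difference (2958 ± 172 against 232 ± 52, log2 fold change 3.68 ± 0.25, adjusted p = 1.3e-07), followed by Utf1 (708 ± 93 against 112 ± 23, 2.65 ± 0.57, adjusted p = 0.0022), Sall4 (1370 ± 127 against 340 ± 78, 2.02 ± 0.29, adjusted p = 9.6e-05) and Pou5f1 (7446 ± 671 against 2662 ± 1867, 1.68 ± 0.45, adjusted p = 0.0092). Pou5f1 lost its call without N2B27 day 8 replicate 2 (0.90) or LIF/2i day 12 replicate 1 (1.59). In NSC medium at day 12, against the same N2B27 libraries, Nanog (1.70 ± 0.25, adjusted p = 9.7e-05) and Utf1 (2.83 ± 0.57, adjusted p = 0.0012) rose, among 7.43% of genes. Sall4 did not pass (0.21 ± 0.29), nor did Pou5f1 (0.98 ± 0.45, adjusted p = 0.11), which was called without N2B27 day 8 replicate 1 (1.76).

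Between the media on Dox (days 12 and 16), 8.07% of genes and 3 of the 4 members rose in LIF/2i. Nanog averaged 3884 in LIF/2i and 537 in NSC medium (2.94 ± 0.18, adjusted p = 9.3e-09), Sall4 1450 and 239 (2.95 ± 0.21, adjusted p = 4.4e-08) and Pou5f1 7899 and 3074 (1.55 ± 0.32, adjusted p = 0.0011). Utf1 averaged 806 and 492 (0.96 ± 0.41, adjusted p = 0.067) and was called without LIF/2i day 16 replicate 2 (1.36). Reads on delivered factors moved with the media while Dox was present. Those on Sox17 averaged 16688.5 at day 12 and 25998 at day 16 in LIF/2i, against 11250 and 4017.5 in NSC medium (1.51 ± 0.29, adjusted p = 5.6e-04), and those on Klf4 were also higher (1.25 ± 0.20). Their part in the difference was not tested. After Dox (days 20 and 24), where Sox17 no longer differed by the test (0.28 ± 0.29, adjusted p = 0.44), the same 3 members were higher in LIF/2i, among 12.2% of genes. Nanog averaged 12052.5 and 531 (4.51 ± 0.18, adjusted p = 2.8e-11), Pou5f1 8916 and 1444 (2.77 ± 0.32, adjusted p = 2.5e-06) and Sall4 2540 and 397 (2.75 ± 0.21, adjusted p = 2.6e-08). Utf1 did not differ by the test (217 and 331, -0.38 ± 0.41, 95% interval -1.24 to 0.49).

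**Figure D5:**
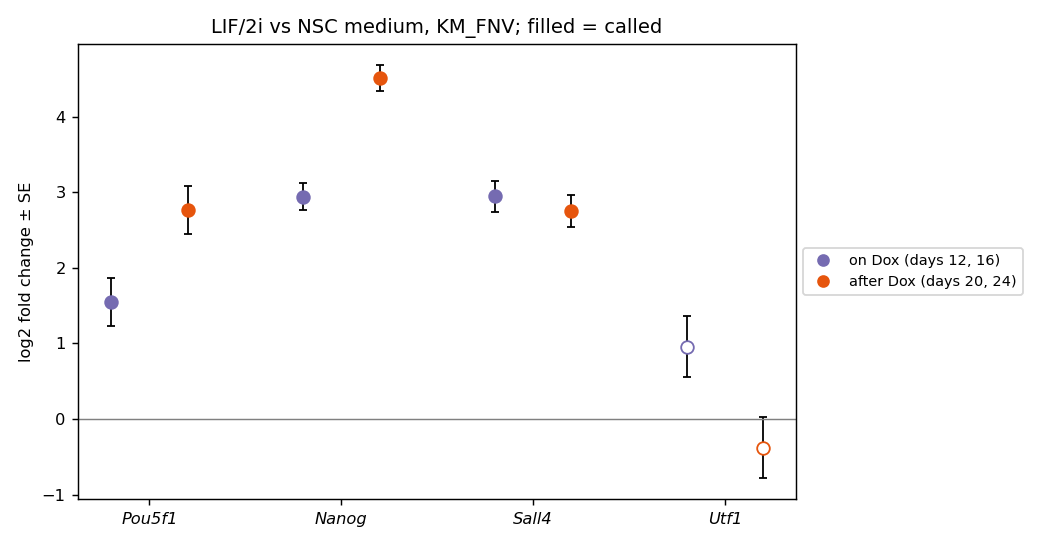
Log2 fold change with its standard error between LIF/2i and NSC medium for each member, on Dox and after Dox, with filled points for called genes. Nanog has the largest difference after Dox (4.51), and Utf1 is not called in either period.

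Within LIF/2i, the period after Dox was compared with that on Dox, with 11.6% of genes called. Nanog rose (12052.5 against 3884, 1.64 ± 0.18, adjusted p = 5.2e-06) and Utf1 fell (217 against 806, -2.01 ± 0.41, adjusted p = 0.0012). Sall4 did not reach 2-fold (0.80 ± 0.21, adjusted p = 0.0067), and Pou5f1 differed by 0.17 ± 0.32 (95% interval -0.51 to 0.86), while reads on delivered Sox17 fell by 5.64 on the log2 scale. In NSC medium, with 9.33% of genes lower, Pou5f1 fell to 1444 after Dox against 3074 on Dox (-1.04 ± 0.32, adjusted p = 0.012), but was not called without NSC-medium day 16 replicate 2 (-0.996), day 20 replicate 1 (-0.88) or day 24 replicate 1 (-0.61). Its mean on Dox was carried by day 12 (4554), while the libraries of day 16 (1488 and 1700) overlapped with those of days 20 and 24. Sall4 was just under 2-fold (0.99 ± 0.21, adjusted p = 8.5e-04) and was called without the same libraries (1.10, 1.34 and 1.02). The widening of the gap between the media after Dox was itself called for Nanog and Pou5f1 (13.9% of genes called). The Pou5f1 call (1.22, adjusted p = 0.0496) was lost without any 1 of 14 of the 16 libraries, after rescaling, with a replicate block (adjusted p = 0.056), without the variance trend and with the compared groups alone. In NSC medium, Nanog (0.07 ± 0.18) and Utf1 (-0.68 ± 0.41) did not pass, and Utf1 was called without day 24 replicate 2 (-1.20).

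The wider network followed the media. Of 20 core network partners, 19 were higher in LIF/2i on Dox, as were 8.07% of all genes, and 0 were lower (median 3.06 against -0.03 over all genes), with the stem cell factors Klf2 (4.96 ± 0.15), Esrrb (4.45 ± 0.35) and Prdm14 (3.96 ± 0.79) among the largest. After Dox 19 were again higher, as were 12.2% of all genes, and 0 were lower (median 3.65), led by Nr0b1 (6.93 ± 0.33) and Esrrb (6.35 ± 0.35). Of the 10 Oct4 and Sox2 targets, 5 were higher and 1 lower on Dox, and 6 higher and 1 lower after it. Fbxo15 (4.64 ± 0.27) and Fgf4, the growth factor whose enhancer is a classical Sox-Oct site (4.18 ± 0.31), were the largest after Dox, and Spp1, which is also made by fibroblasts, was the gene that was lower. Of 16 protein partners 3 rose on Dox and 4 after it, with none lower. Fibroblast markers summed to 177648 at day 12 and 136343 at day 16 in LIF/2i, against 53158.5 and 92740.5 in NSC medium, with 1 of 10 higher and 5 lower by the test. After Dox they were still abundant in LIF/2i, with a summed level of 244846 at day 20 and 171164 at day 24, against 259969 and 267057 in NSC medium, none at 0 and 3 of 10 lower by the test. Germ cell markers rose too, 4 of 7 tested (Dnd1, Kit, Tfap2c and Mael), several of which embryonic stem cells also express, with a summed level of 5438.5 at day 20 and 7253.5 at day 24 in LIF/2i against 1717.5 and 1668.5 in NSC medium. Endoderm markers summed to 780 and 893 after Dox in LIF/2i against 3449 and 4212 in NSC medium, with 2 of 5 lower by the test. Keratinocyte markers summed to 1907 and 1686.5 on Dox in LIF/2i against 6107 and 3651 in NSC medium, with 2 of 4 lower. The part of these lists in the members' values was not tested.

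Likeness of pattern was measured as Pearson's r of log2 group means, among genes that reached a group mean of 100. These were 15886 genes in the NSC-medium table and 15815 in the parallel table. In the NSC-medium table (28 groups, which share cocktails, days and normalization) the nearest to Pou5f1 were Cyp2b23 (0.94), Lefty2 (0.91), AU015836 (0.90), Trap1a (0.88) and Zfp42 (0.85). For Nanog they were Rpl39 (0.72), Frem2 (0.72), Dyx1c1 (0.71), Sox1 (0.68) and Rnf114 (0.66), all at lower r than those of the other members. For Sall4 they were L1td1 (0.86), Kif5c (0.85), Kcnj3 (0.84), Gm6614 (0.82) and Fam169a (0.81). For Utf1 they were Olfr1388 (0.87), Gm46430 (0.87), Slc7a3 (0.85), D10Wsu102e (0.85) and Lefty2 (0.84). By Spearman's rho the genes named for Pou5f1 ranged from 0.45 (Lefty2) to 0.79 (Zfp42). Those named for Nanog ranged from 0.48 (Dyx1c1) to 0.76 (Frem2). In the parallel table (13 groups) the nearest were Platr10 (0.997), Zfp936 (0.990), Tfap2c (0.987), Slc15a1 (0.987) and L1td1 (0.983) for Pou5f1, and Jakmip1 (0.99), Rbmxl2 (0.98), Ash2l (0.98), Fbxo15 (0.98) and Hat1 (0.98) for Nanog. They were L1td1 (0.98), Cdh1 (0.98), Fgf4 (0.98), Ooep (0.97) and Zfp819 (0.97) for Sall4, and Rhox6 (0.97), Rhox9 (0.97), Grb7 (0.96), Serpinb9f (0.96) and Serpinb9d (0.96) for Utf1. Among the members themselves, the most alike pair depended on the measure. In the parallel table it was Pou5f1 and Sall4 by Pearson's r (0.96) and Nanog and Sall4 by Spearman's rho (0.95). In the NSC-medium table it was Pou5f1 and Utf1 by r (0.74, with a rho of 0.42) and Sall4 and Utf1 by rho (0.72).

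The order of group means within each table can be stated only in part. For Pou5f1 in the NSC-medium table the top 4 places were BKM_FNV at days 24, 18, 12 and 8 (1652, 1302.5, 944.5 and 857), neighbours whose libraries overlapped, then a gap to K_FNV at day 18 (31.5 ± 16.3). Of its 27 neighbouring pairs 25 overlapped, many of them groups at 0. In the parallel table the top 4 places for Pou5f1, Nanog and Sall4 were all LIF/2i groups. For Nanog these 4 were separated from each other and from the fifth, NSC medium at day 12 (754 ± 145), while for Sall4 days 16 and 12 overlapped. How many of all genes were so separated was not counted. For Utf1 the first place was LIF/2i at day 16 (904.5 ± 646), which overlapped with NSC medium at day 12 (801 ± 1.41).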

How the data were processed

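Per the submitters' processing notes, Bowtie2 2.0, RSEM and the build mm10 were used, with no role or order given. The authors deposited normalized tag counts, recorded here as a score, with the normalization not given in the sources used here. The 74 samples were grouped by their labels, and 4 columns that matched no labelled sample were not used. The 2 tables were fitted apart, since they were normalized apart. In R 4.3.3 with limma 3.58.1, log2(value + 2) of genes with at least 10 in at least 2 libraries (20760 of 21241 and 20468 of 20558) was fitted with a mean per group and a variance trend. BKM_Sox2 day 24 replicate 1 was left out. Contrasts over days averaged the differences of each day. P values were two-sided and adjusted by Benjamini and Hochberg within a contrast over all genes tested. Nothing was tested between days 18 and 24 of the NSC-medium table, because the submitters' description labels of the libraries change style there. The sample titles and column names keep their style. Named beside the members were the 5 genes most like each and, of each list, up to 3 called genes with the largest changes, plus the delivered factors. Members, lists and tests were chosen with earlier results of these data known. Fits were tested on simulated data. Alternatives were a pseudocount of 10, no filter, rescaling by the median ratio, a replicate block, the compared groups alone, no variance trend, the left-out library restored and each library left out. Motifs and figures were made with Python 3 scripts. The column sums (17698392 to 17710071 and 17848683 to 17866021) reflect the normalization and not depth.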

Additional observations from a re-analysis of the deposited data

Results flagged for a closer look

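The change from day 4 to day 18 on Dox differed between cocktails by limma's interaction test. For Pou5f1 the change in BKM_FNV exceeded that in BKM_Sox17 by 4.90 ± 0.59 on the log2(value + 2) scale (adjusted p = 1.5e-05) and that in BKM_Sox2 by 6.89 ± 0.59 (adjusted p = 1.0e-08). The change in K_FNV minus that in BKM_FNV was -4.46 ± 0.59 (adjusted p = 1.8e-06). BKM_Sox17 and BKM_Sox2 were listed at 0 at day 4, so these sizes depend on the added 2.

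Against BKM_Sox2, the BKM_FNV course was less upward for Nanog (-2.70 ± 0.76, adjusted p = 0.015). For Sall4 the BKM_FNV mean was 55.5 at day 18 against 111 at day 4, a fall not called, where BKM_Sox2 rose (-3.61 ± 0.60, adjusted p = 1.6e-04). For Utf1 the BKM_FNV course was upward where that of BKM_Sox2 was downward (3.97 ± 0.69, adjusted p = 2.6e-04). In levels, Nanog in BKM_Sox2 was 17 and 0 at day 4, and without the library at 0, replicate 2, the difference was -1.07 and not called. It was also not called without BKM_FNV day 18 replicate 1 (-2.51), BKM_FNV day 4 replicate 2 (-2.55) or BKM_Sox2 day 18 replicate 1 (-2.30).

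In the parallel table the gap between LIF/2i and NSC medium was wider after Dox than on it for Nanog (1.57 ± 0.25, adjusted p = 2.7e-04) and, close to the threshold, for Pou5f1 (1.22 ± 0.45, adjusted p = 0.0496), whose call was lost without any of 14 of the 16 libraries compared.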

How the results depend on the processing

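Across the alternatives, 0 of the members' results reversed. Of 1112 recomputed values other than those with a library left out, 1037 kept their side of the threshold, 69 lost a call and 6 gained one, and with a library left out the numbers were 974, 67 and 15 of 1056. Values are log2 differences. Among results over or between days, a pseudocount of 10 took 4 under 2-fold, namely Sall4 in BKM_FNV against BKM_Sox17 on Dox (0.93), Utf1 in BKM_Sox17 against BKM_Sox2 (-0.77), Pou5f1 in BKM_Sox17 between days 18 and 4 (0.998) and Utf1 at day 4 against MEFs (0.84), and it called the Utf1 course of BKM_FNV against BKM_Sox17 (1.45). At single days it ended 2 calls and made 3. The values against groups at 0 depend on the added number by construction.

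Restoring BKM_Sox2 day 24 replicate 1 kept the differences that do not contain it and widened the shared spread. Calls were then lost for Nanog in BKM_FNV against BKM_Sox17 on Dox (1.43, adjusted p = 0.072) and after Dox (1.07, 0.469), between days 18 and 4 in BKM_FNV (1.48, 0.392) and K_FNV (2.22, 0.199), at day 4 against MEFs (-1.94, 0.060), between days 30 and 24 (-2.17, 0.161) and in the course against BKM_Sox2 (-2.70, 0.591). For Utf1 they were lost in BKM_Sox17 against BKM_Sox2 (-1.22, 0.349), between days 18 and 4 in BKM_FNV (1.48, 0.579) and BKM_Sox2 (-2.49, 0.211), at day 4 against MEFs (1.60, 0.300), in BKM_FNV against BKM_Sox2 after Dox (1.83, 0.0855) and in the course against BKM_Sox2 (3.97, 0.387). Counts over all genes moved by over 1.5 times in 28 comparisons, 27 of them downward, for example to 448 against 772 in BKM_FNV against BKM_Sox17 on Dox, 2113 against 4752 between days 18 and 4 of BKM_FNV and 1413 against 3070 between its days 30 and 24, and upward to 6694 against 3144 in BKM_FNV against BKM_Sox2 after Dox.

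Fitting the compared groups alone leaves few libraries to estimate the spread. Calls were then lost for Utf1 (1.48) in BKM_FNV, Nanog (4.18) in BKM_Sox2 and Pou5f1 (3.02) and Nanog (2.22) in K_FNV between days 18 and 4, Nanog at day 4 against MEFs (-1.94), the Pou5f1 course against BKM_Sox17 (4.90) and the Nanog course against BKM_Sox2 (-2.70). In the parallel table they were lost for Pou5f1 at N2B27 day 8 against day 4 (1.93), LIF/2i day 12 against N2B27 day 8 (1.68), after against on Dox in NSC medium (-1.04) and in the widening of the media gap (1.22). Of the 37 calls at single days, 22 were lost and 13 with the restored library. Counts over all genes fell by over 1.5 times in 14 comparisons, for example to 294 against 964 between N2B27 days 8 and 4. A pseudocount of 10 gave 497 against 772 for BKM_FNV against BKM_Sox17. Rescaling by the median ratio ended the Pou5f1 call (-0.92) and made a Sall4 call (1.12) after against on Dox in NSC medium, and ended the Pou5f1 call on the media gap (1.18, adjusted p = 0.059), as did dropping the variance trend (1.22, 0.058).

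Replicate numbers did not pair the samples: the deviations of same-numbered libraries correlated with a median r of 0.000414 over 276 pairs of groups and 0.00973 over 66, and 0% exceeded 0.1. With a replicate block, the Pou5f1 call on the media gap was lost (1.22, adjusted p = 0.056), and the other 163 of 164 member results kept their side.

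With single libraries left out, the ranges of the results whose call changed were 0.96 to 1.12 for Sall4 and 1.03 to 1.10 (after Dox) for Nanog in BKM_FNV against BKM_Sox17, and 0.33 to 1.14 for Nanog in BKM_Sox17 against BKM_Sox2. Between days 18 and 4 they were 1.29 to 1.68 for Nanog, -1.33 to -0.69 for Sall4 and 0.92 to 2.04 for Utf1 in BKM_FNV, and 1.70 to 2.75 for Nanog and 0 to 2 for Utf1 in K_FNV. For differences of courses they were -4.32 to -1.07 for Nanog against BKM_Sox2 and 0.51 to 1.70 for Sall4 in K_FNV against BKM_FNV. In the parallel table they were 0.81 to 1.09 for Nanog at N2B27 day 4 against MEFs, 1.14 to 2.71 for Pou5f1 at day 8 against day 4, 0.90 to 2.47 for Pou5f1 in LIF/2i and 0.19 to 1.76 in NSC medium at day 12 against N2B27, and 0.56 to 1.36 for Utf1 between the media on Dox. After against on Dox in NSC medium they were -1.48 to -0.61 for Pou5f1, 0.65 to 1.34 for Sall4 and -1.20 to -0.15 for Utf1, and for the media gap 0.78 to 1.65 for Pou5f1 and -1.86 to -0.81 for Utf1. Counts over all genes moved by over 1.5 times without N2B27 day 4 replicate 1 (629 against 964), N2B27 day 8 replicate 2 (544 against 964), NSC replicate 2 (638 against 420, iNSC_BKMF against NSCs), and at single days without BKM_Sox17 day 4 replicate 1 (197 against 305) or day 8 replicate 2 (613 against 951). Leaving out the only library of a group gives no value. Depth is unknown, so no limit from counting can be given.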
